A study of Triticum aestivum with 12 samples.

Results

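The distal end of wheat chromosome 3B was examined as the group 3 counterpart of the ends of chromosomes 3A and 3D, which have low (3A) and raised (3D) expression in the RNAi line E82. Members were all genes whose identifier begins with TraesCS3B02G and whose number is 510000 or above, from TraesCS3B02G510000 to TraesCS3B02G612900. They were 985 of the 5905 genes listed for 3B (16.7%) and of the 107892 genes in the whole count table. The rule uses the identifier alone and no expression value. Identifier numbers follow gene order along the chromosome, so order is given here as a stand-in for position, and no coordinates are given.

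RNA-seq was performed on developing grain and on flag leaf at 20 days after anthesis (DAA) from E82 and from the wild type (WT), the bread wheat line BW208. E82 is 1 transgenic line derived from BW208 and selfed for 8 generations. It carries 2 RNAi plasmids, pGhp-ω/α together with pghp8.1, whose inverted repeats target the ω-, α- and γ-gliadin genes under promoters that act in the endosperm. BW208 carries neither plasmid. The groups were therefore E82 grain, WT grain, E82 leaf and WT leaf, with 3 libraries each, described as biological replicates. Because E82 is a single line, the transgenes cannot be told apart from any other difference that arose between it and BW208.

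Bread wheat is a hexaploid whose A, B and D subgenomes each carry a largely collinear set of genes, and the corresponding copies are called homeologs. When the expression of 1 homeolog is lost, the others may stay at their own level, so that the total falls, or may rise so that the total is kept, which is called dosage compensation. Distal parts of wheat chromosomes are known to be rich in genes that are expressed in few tissues or conditions.

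Library totals were 31716495 to 44826804 estimated counts in E82 grain, 47733020 to 50629732 in WT grain, 55529286 to 59921014 in E82 leaf and 27172814 to 41002622 in WT leaf. Genes with a count numbered 58338 to 60735 in E82 grain and 60944 to 64874 in WT grain, and 55916 to 59840 in E82 leaf but only 31558 to 45655 in WT leaf, so the WT leaf libraries stood apart. The 10 grain markers examined (Glo3 globulins, granule-bound starch synthase, TaPBF and the BT1 transporter) summed to 7614 to 8168 CPM (counts scaled to a common library total) in E82 grain and 11328 to 12756 in WT grain. Of the 10, 2 were at 0 in every E82 grain library. In leaf the 10 summed to at most 30.4 CPM in WT and 0.72 in E82. The 2 TaSWEET13 genes used as leaf markers summed to 659 to 1811 CPM in E82 leaf and 8430 to 12978 in WT leaf, and to at most 0.85 in grain. The study itself reports genes of granule-bound starch synthase, BT1 and TaPBF as lower in E82 grain, and TaSWEET13 as lower in E82 leaf. These sums therefore mark the tissue and cannot tell its make-up apart from such changes. The part of these differences in the results below was not tested.

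Distal 3B was thinly expressed in these tissues. Any count at all was found for 533 members (54.1%), against 74.4% of all genes. Of the 985 members, 372 (37.8%) passed the filter on low counts in grain and 276 (28.0%) in leaf, against 60.0% and 49.9% of all genes. Members that averaged 1 CPM or more across the 6 libraries of a tissue, called well counted below, were 254 in grain and 216 in leaf. Of these, 166 were well counted in both tissues, 88 in grain only and 50 in leaf only. The other 2 ends were set by the same share of each chromosome, counted from its end: 873 genes of 3A and 887 of 3D. Not all of these genes lie in a stretch that was changed in both tissues. Such stretches, chosen by a running median of the expression values themselves, held the outermost 756 genes of 3A and 397 of 3D. Homeolog pairs were not used, so some members may lie opposite genes that were not changed.

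In grain, the summed expression of distal 3B was nearly the same in both lines. It took 4161, 4136 and 4076 CPM in the E82 libraries and 4202, 3995 and 4199 CPM in the WT libraries, and the groups overlap. The means were 4124 ± 43.8 in E82 and 4132 ± 119 CPM in WT (SD, n = 3 each), a ratio of 0.998. Over the same libraries, distal 3A took 500.0 to 599 CPM in E82 and 3535 to 4211 CPM in WT, a ratio of 0.139. Distal 3D took 10368 to 10742 CPM in E82 and 4698 to 5646 CPM in WT, a ratio of 2.01. The rest of 3B took 34119 to 35398 CPM in E82 and 28863 to 33413 CPM in WT, a ratio of 1.09. Thus, as a share of the library, the sum of distal 3B did not move beyond the spread of the WT libraries. The libraries of the 2 lines were far apart for distal 3A and 3D. Beside the rest of its own chromosome, distal 3B had the lower ratio.

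In leaf, distal 3B was somewhat lower in E82 when expressed as a share of the library. It took 2817, 3216 and 2767 CPM in E82 and 3771, 3455 and 3196 CPM in WT, and only the second E82 library reached the lowest WT library. The means were 2933 ± 246 in E82 and 3474 ± 288 CPM in WT (SD, n = 3 each), a ratio of 0.844. Scaled by TMM, which sets the bulk of genes level between libraries, the leaf ratio was 1.02, with 3096 to 3322 CPM in E82 and 2788 to 3479 CPM in WT, so its direction depends on the scaling. The ratios of distal 3A (0.0932) and distal 3D (1.66) in leaf kept their direction on every scale tried. As a share of the library, the rest of 3B took 40079 to 42644 CPM in E82 leaf and 38741 to 42510 CPM in WT leaf. Its ratio was 1.02, with overlap.

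**Figure D1:**
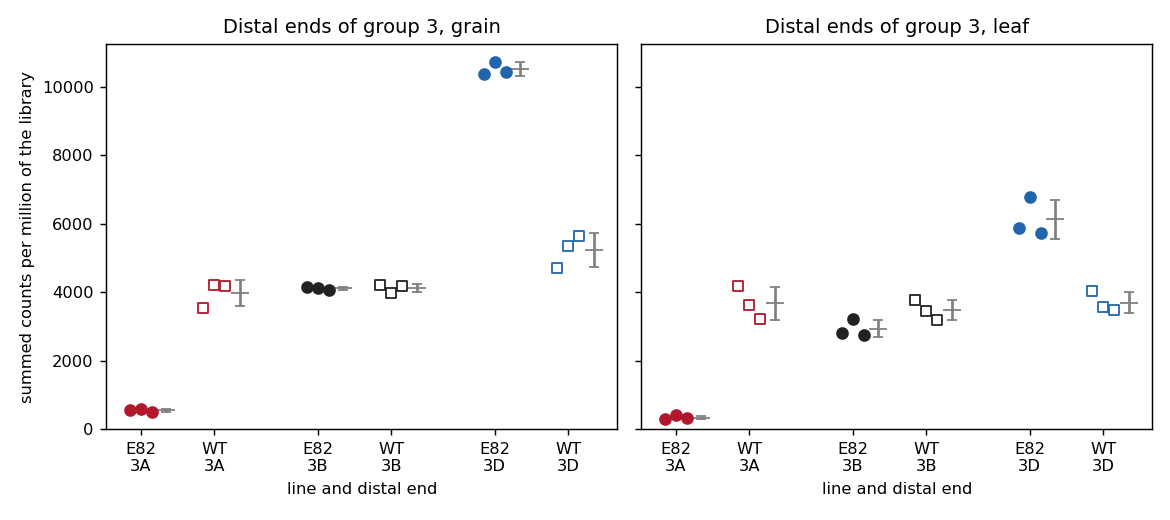
Summed expression of the distal ends of 3A, 3B and 3D in each library (points, filled for E82 and open for WT), in CPM of the library, with the mean and SD of 3 libraries in grey. The 3B points of the 2 lines lie at the same height in grain (ratio 0.998) and a little lower for E82 in leaf (ratio 0.844), between the fall of 3A and the rise of 3D.

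Of the 5 ways of summing, none gave a grain total for 3B in E82 that exceeded that of WT by more than 1.03 times. Scaled by TMM, the sums were 3846, 3898 and 3863 CPM in E82 grain and 5272, 3884 and 4187 CPM in WT grain, a ratio of 0.870, in which the first WT library stands high. In TPM, the unit of kallisto that corrects for transcript length, they were 3077, 3125 and 2954 in E82 grain and 3471, 3226 and 3259 in WT grain, a ratio of 0.920 with no overlap between the lines. The TPM listed per library summed to less in E82 grain (781280 to 802745) than in WT grain (822513 to 867760). With all totals made equal, the sums were 3118, 3254 and 3063 in E82 grain and 3255, 3190 and 3223 in WT grain, a ratio of 0.976 with overlap. In leaf, the TPM sums were 2319, 2581 and 2236 in E82 and 3218, 2848 and 2866 in WT, a ratio of 0.799, again without overlap, and 0.821 without overlap when the totals were made equal. Without the 10 most abundant members, the ratio of the CPM sums was 1.03 in grain and 0.870 in leaf.

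The 3 ends together took 15191 ± 251 CPM in E82 grain and 13341 ± 817 CPM in WT grain (SD, n = 3 each), a ratio of 1.14. In leaf they took 9411 ± 869 CPM in E82 and 10858 ± 1058 CPM in WT, a ratio of 0.867. These totals are shares of the library and were not summed on another scale. With library totals alone, the median log2FC of all well counted genes was 0.19 in grain and -0.13 in leaf. The 2 ratios therefore do not show that the total of the 3 ends rose in grain or fell in leaf. Within the total of the 3 ends, distal 3B held 27.2 ± 0.43% in E82 grain and 31.1 ± 2.38% in WT grain. In leaf it held 31.2 ± 0.26% in E82 and 32.0 ± 0.55% in WT. The share of 3D was 69.2% in E82 grain and 39.2% in WT grain, and 65.2% in E82 leaf and 34.1% in WT leaf, and that of 3A was 3.64% in both tissues of E82 against 29.8% in WT grain and 33.8% in WT leaf.

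Single genes gave the same picture as the sums. Among the 254 members well counted in grain, the median log2 fold change (log2FC, E82 over WT) was -0.05, with quartiles of -0.47 and 0.32. The median over all 50876 well counted genes was 0.01, and over the rest of 3B it was 0.02. The corresponding medians were -8.38 for distal 3A and 0.95 for distal 3D, and the 3A median includes fitted values of genes without a count in E82, which are no bound. With 0.5 CPM added to each value, the medians of distal 3A in the E82 grain libraries were -3.36, -3.29 and -3.34. Of the 254 members, 154 (60.6%) lay within 0.5 of 0, against 64.9% of all well counted genes and 16.4% of distal 3D.

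Large upward shifts were about as frequent among members as among all genes, and downward shifts somewhat more frequent. In grain, 11 of 254 members (4.33%) had a log2FC above 1, against 5.39% of all genes and 46.4% of distal 3D. Below -1 were 29 members (11.4%), against 8.13% of all genes and 6.60% of the rest of 3B. Most of these 29 were well counted in grain only: of 88 such members, 23 (26.1%) were below -1 and the median was -0.31, against 18.7% and -0.01 for the 13601 such genes of the whole table. Of the 88 members, 2 had no count in E82 grain and were well counted through WT grain alone. The 166 members well counted in both tissues had a grain median of -0.01 with 6 below -1. In bulk tissue, fewer cells of a type and less RNA per cell cannot be told apart.

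In leaf the members scattered more widely around the same centre. The median log2FC of the 216 well counted members was -0.05, with quartiles of -0.75 and 0.83, against a median of 0.14 for all 42888 well counted genes and 1.11 for distal 3D. Above 1 were 40 members (18.5%, against 19.7% of all genes and 52.4% of distal 3D), and below -1 were 43 (19.9%, against 15.3% of all genes). The standard error of a single log2FC had a median of 1.06 in leaf and 0.42 in grain over the members, and 0.85 and 0.39 over all well counted genes.

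**Figure D2:**
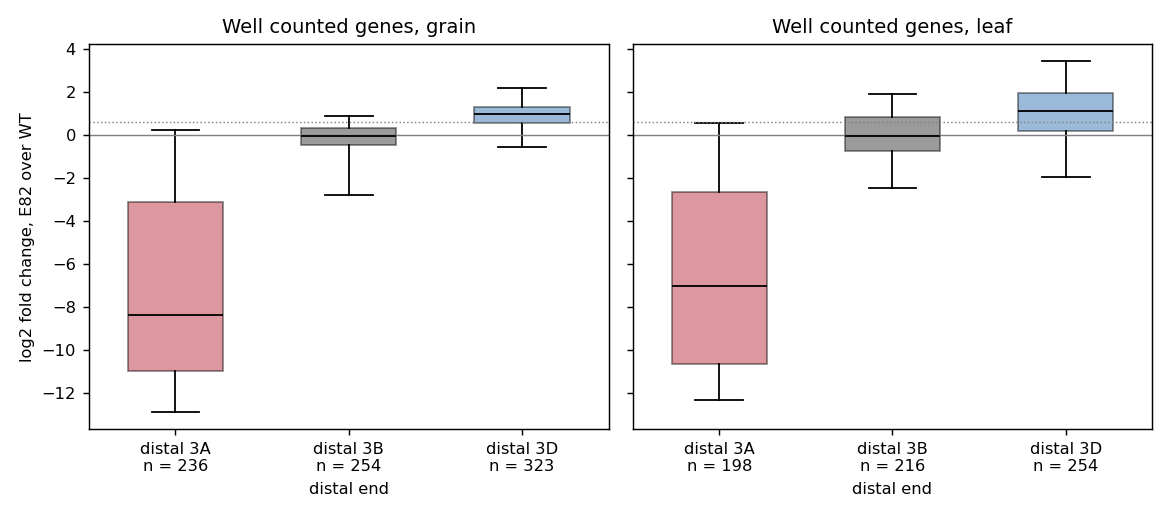
Log2 fold changes (E82 over WT) of well counted genes in the distal ends of 3A, 3B and 3D; boxes span the quartiles, the inner line is the median and the whiskers reach the 5th and 95th percentiles. The dotted line marks a 1.5-fold rise. The 3B median is near 0 in grain (-0.05) and leaf (-0.05), while the 3D median is higher (0.95 and 1.11). The 3D box lies above the 3B box in grain, and the 2 boxes overlap in leaf.

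The medians were small at each expression level. Members at 1 to 5 CPM in grain had a median log2FC of -0.05 (n = 107), those at 5 to 20 CPM of -0.01 (n = 100) and those at 20 CPM or more of -0.08 (n = 47). In leaf the same classes had medians of -0.17 (n = 98), 0.20 (n = 84) and -0.07 (n = 34). None of the 6 classes came near the medians of distal 3D.

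How large a rise the data could have shown was read from the interval of each gene. If 3 homeologs were equally expressed and 1 were lost, the other 2 would each have to rise 1.5-fold to keep the total, a log2FC of 0.58. That case takes 3B and 3D as rising alike. Here summed CPM of distal 3D was at 2.01 of WT in grain and 1.66 in leaf, and the 3 ends together at 1.14 and 0.867. These ratios are of library shares and change with the scaling. The value is thus a size to read the intervals by, and not the rise of 3B that would keep the total in these data. In grain, the 95% interval of the log2FC (from the edgeR test, unadjusted) ended below 0.58 in 90 of the 254 well counted members (35.4%), held that value in 163 and lay above it in 1. For distal 3D, it ended below in 20 of 323 genes and lay above in 57. In leaf the interval ended below 0.58 in 37 of 216 members (17.1%), held it in 174 and lay above it in 5. For most single members in either tissue a rise of this size could therefore not be told from none.

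Library by library, the members of distal 3B moved little. The median log2 ratio of the well counted members to the WT mean was -0.12, -0.08 and -0.09 in the E82 grain libraries and 0.02, -0.02 and -0.08 in the WT grain libraries. The E82 values lie just below the lowest WT value. In leaf the medians were -0.03, -0.13 and 0.01 in E82 and 0.10, -0.02 and -0.51 in WT. The low value belongs to WT leaf replicate 3, in which distal 3D (-0.51), distal 3A (-0.41) and the rest of 3B (-0.34) were low as well, so it was not particular to the ends. The study lists lower alignment rates for all WT leaf libraries than for E82 leaf, with replicate 3 the lowest. The part of this in the leaf results was not tested.

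Fewer members were counted in E82 grain and more in E82 leaf. A count was found for 318, 335 and 339 members in E82 grain and for 374, 378 and 362 in WT grain, without overlap. In leaf, it was found for 338, 308 and 315 members in E82 and for 238, 217 and 161 in WT, again without overlap. Both differences run in the direction of the number of genes counted over the whole genome in these libraries, and E82 grain also had the lower library totals.

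Along the chromosome, no stretch of distal 3B followed 3A or 3D. A running median over 15 well counted genes stayed between -0.47 and 0.44 in grain and between -1.14 and 0.83 in leaf. In consecutive blocks of 100 members, the block medians in grain ran from -0.21 to 0.03. In leaf they ran from -1.14 to 0.50, and the lowest was the second block, TraesCS3B02G520400 to TraesCS3B02G530800, with 23 well counted genes. In that block the library medians relative to the WT mean were -0.34, -0.85 and -1.14 in E82 leaf and -0.05, 0.11 and -1.38 in WT leaf. The lowest of the 6 values was thus a WT library, and the block median moved to -0.61 without WT leaf replicate 1 and to -0.71 without E82 leaf replicate 3.

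**Figure D3:**
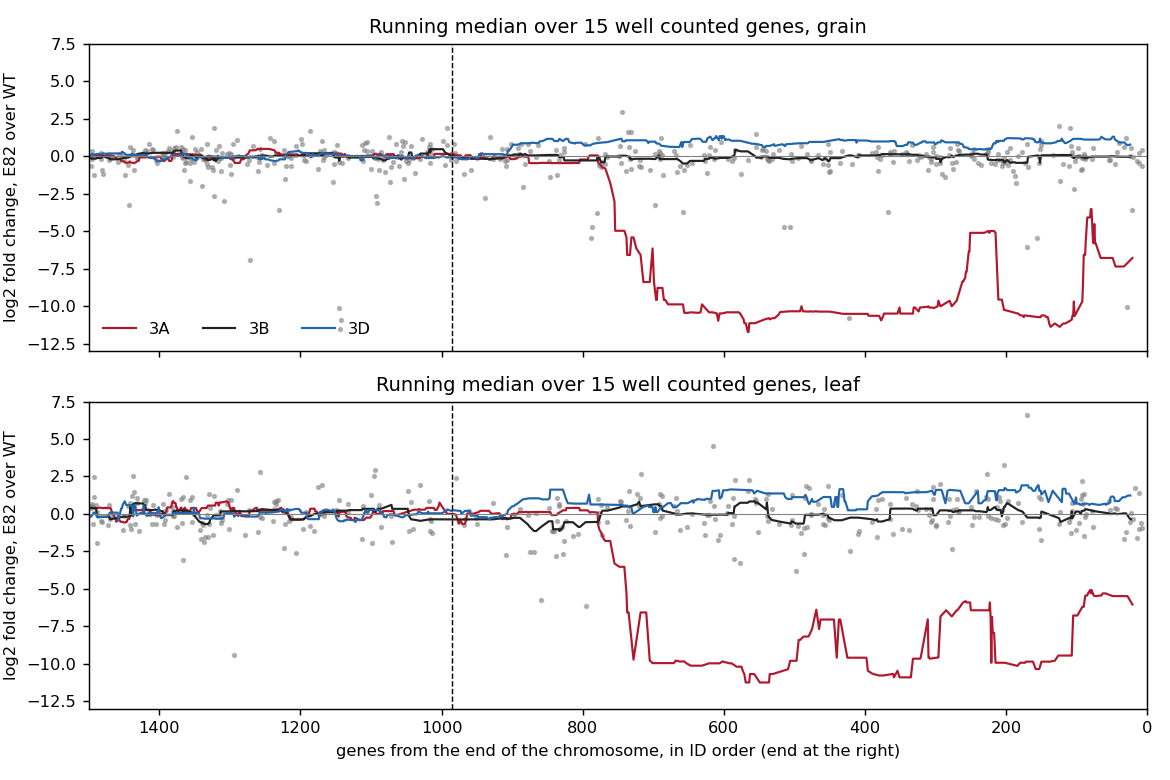
Running median of the log2 fold change (E82 over WT) over 15 well counted genes along the last 1500 genes of 3A (red), 3B (black) and 3D (blue), by number of genes from the chromosome end; grey points are single 3B genes and the dashed line marks the first member. The black line stays between -0.47 and 0.44 in grain and between -1.14 and 0.83 in leaf over distal 3B, while the red line drops and the blue line rises.

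The log2FC of a member in grain told little of its log2FC in leaf. Over the 166 members well counted in both, Spearman's rho between the log2FC in grain and in leaf was 0.07 and Pearson's r was 0.09, as a description across genes that share the libraries of each tissue. Of these members, 43 were above 0 in both tissues, 44 below 0 in both, 39 above 0 in grain only and 40 above 0 in leaf only. A log2FC above 0.5 in both tissues was found for 13 of the 166 members, against 124 of 202 genes of distal 3D. Over those 202 genes rho was 0.08, although 124 of them were above 0.5 in both tissues. The median SE of a log2FC in leaf was 1.41 over well counted distal 3D genes, whose log2FC had quartiles of 0.18 and 1.94. It was 1.06 over well counted members of distal 3B. With errors of this size, a low rho cannot tell an order of genes that is not shared from noise.

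**Figure D4:**
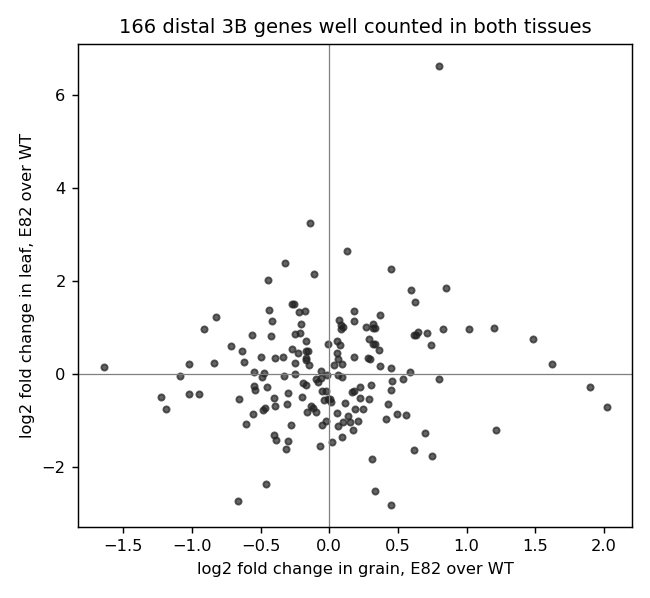
Log2 fold change (E82 over WT) in leaf against that in grain for the 166 distal 3B genes well counted in both tissues, 1 point a gene. The points fill the 4 quadrants of the plot in similar numbers (43, 44, 39 and 40), and Spearman's rho is 0.07.

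Member by member, few genes passed the edgeR test in grain and all of them were lower in E82. With edgeR's quasi-likelihood test and Benjamini-Hochberg adjustment over all genes (adjusted p below 0.05), 0 of 372 tested members were called higher, against 0.0927% of all tested genes. Called lower were 5 (1.34%), against 1.31% of all tested genes and 15 of 3009 (0.499%) in the rest of 3B. The share over all genes includes the calls in distal 3A given below. Without adjustment, 44 members (11.8%) had a p below 0.05, against 10.2% of all genes, and DESeq2 called 2 members higher and 15 lower (4.57%, against 3.94% of all genes). In every E82 library above every WT library were 26 members (6.99%), against a background of 7.1%, and in every E82 library below every WT library were 54 (14.5%), against 9.28%. In the rest of 3B these shares were 7.21% and 7.58%. Distal 3A had 162 of 345 tested genes called lower, and distal 3D had 27 of 431 called higher. The 5 calls depended on the libraries used, as did the calls over all genes (1.40% in the fit reported). Without E82 grain replicate 1 or 2, 0 members were called, against 0.503% and 0.470% of all genes. Without E82 grain replicate 3, 1 was called (TraesCS3B02G597300, which is none of the 5), against 0.533% of all genes. Without WT grain replicate 1 there were 3 (0.822%, against 1.07%), and without WT grain replicate 2 there were 2 (0.559%, against 0.800%). Without WT grain replicate 3 there were 7 (1.96%, against 2.63%).

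Of these 5 genes, 3 were well expressed in WT grain and kept some counts in E82. TraesCS3B02G530500 had 248, 677 and 243 counts in E82 grain and 33855, 13485 and 3017 in WT grain. The groups do not overlap, and the spread within WT was itself wide. Its log2FC was -5.44 (SE 0.88, edgeR adjusted p = 0.0161), with 6.14 ± 3.36 TPM in E82 and 204 ± 175 TPM in WT (SD, n = 3 each). It kept a log2FC between -5.98 and -4.25 whichever library was left out, but the call was lost without any 1 of the 3 E82 libraries (adjusted p = 0.0976 to 0.149).

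TraesCS3B02G560100, a short transcript of 426 bases, had 298, 290 and 99 counts in E82 grain and 12318, 3859 and 1187 in WT grain. Its log2FC was -4.73 (SE 0.82, edgeR adjusted p = 0.0237), with 20.3 ± 7.58 TPM in E82 and 412 ± 386 TPM in WT. It was among the 5 most abundant members in grain by TPM, and its call too was lost without any 1 of the E82 libraries (adjusted p = 0.165 to 0.174). TraesCS3B02G561000, a little further along the chromosome, is listed by the study as a PLATZ transcription factor. PLATZ proteins are plant zinc-binding proteins that bind AT-rich DNA, and in maize a member of the family acts in the filling endosperm.

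TraesCS3B02G561000 had 65, 52 and 16 counts in E82 grain and 2226, 1012 and 164 in WT grain, without overlap. Its log2FC was -4.73 (SE 0.88, edgeR adjusted p = 0.0325), with 1.12 ± 0.53 TPM in E82 and 23.1 ± 19.5 TPM in WT. The call was lost without any 1 of the 3 E82 grain libraries and without WT grain replicate 1 or 2 (adjusted p = 0.0582 to 0.207). In all 3 of these genes the order of the WT libraries was the same, with replicate 1 highest and replicate 3 lowest.

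The remaining 2 had no count in E82 grain. TraesCS3B02G569500 had 0 counts in the 3 E82 grain libraries and 292, 297 and 64 in the WT grain libraries. Set against a floor of 3 counts in each E82 library, it was at least 67.5-fold lower in E82 (edgeR adjusted p = 0.0123), a call lost without any 1 of the E82 libraries or WT grain replicate 2 (adjusted p = 0.0543 to 0.0640). TraesCS3B02G610000 had 0 counts in the 3 E82 grain libraries and 271, 78 and 36 in the WT grain libraries. It was at least 41.8-fold lower in E82 by the same floor (edgeR adjusted p = 0.0432), and at least 16.1-fold lower without WT grain replicate 1, where the adjusted p was 0.522. Among the fits that left out a library, its call held only without WT grain replicate 3 (adjusted p = 0.0244), and it was lost with a stricter filter on low counts (adjusted p = 0.0536). None of the 5 genes had a single count in any of the 6 leaf libraries, so of the 2 tissues sequenced they were counted in grain only.

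**Figure D5:**
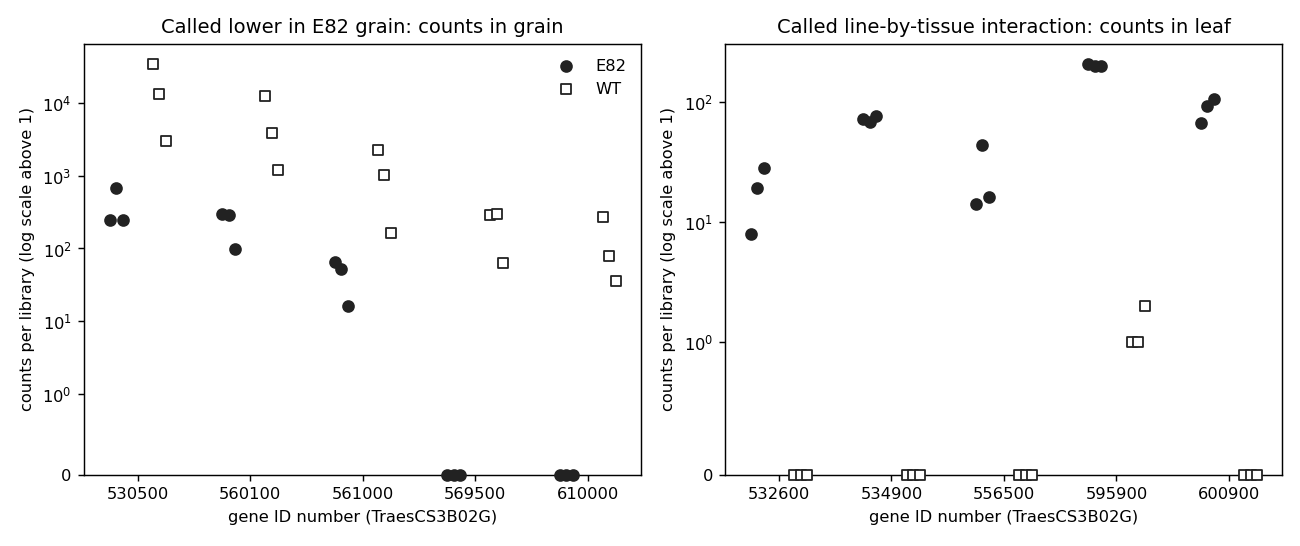
Estimated counts per library (filled circles E82, open squares WT, log scale above 1) of the 5 distal 3B genes called lower in E82 grain (left, counts in grain) and of the 5 called for the line-by-tissue interaction (right, counts in leaf). At left the E82 libraries lie below the WT libraries in each gene, and 569500 and 610000 have 0 counts in E82; at right the WT leaf libraries have 0 to 2 counts.

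Losses of expression were scattered and not in a block. At least 10 counts in every WT grain library and at most 3 in every E82 grain library were found for 11 members (1.12%), against 0.776% of all genes and 165 of 873 genes of distal 3A. In the rest of 3B they were found for 29 of 4920 genes (0.589%). These shares are of all listed genes, and fewer members (37.8%) than genes of the whole table (60.0%) passed the filter in grain. At least 30 counts in each WT library left 6 members. Only TraesCS3B02G569500 and TraesCS3B02G569600 among the 11 were neighbours in gene order, and the others lay between the 57th and the 972nd member. TraesCS3B02G569600 had 0 counts in each E82 grain library and 37, 20 and 16 in the WT grain libraries. Neither a member silent in E82 leaf nor a member counted only in E82 grain was found by the same limits (0 of 985 each).

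In leaf, 0 of 276 tested members were called higher, against 0.0204% of all tested genes, and 0 were called lower, against 0.143%. Without adjustment, 43 members (15.6%) had a p below 0.05 in the edgeR test, against 19.3% of all genes. In every E82 leaf library above every WT leaf library were 57 members (20.7%), against a background of 23.8%, and in every E82 library below every WT library were 26 (9.42%), against 7.39%. This count of 0 depended on the test, the filter and 1 library. DESeq2 called 24 members (14 higher, 10 lower; 8.70%, against 10.6% of all genes). Without WT leaf replicate 1, edgeR called 35 members (34 higher, 1 lower; 13.0%, against 16.8% of all genes). In each case the share of members called was below that of all genes.

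Members with counts only in E82 leaf were 19 (1.93%), against 3.59% of all genes and 41 of 887 genes of distal 3D. They had at least 10 counts in each E82 leaf library and at most 3 in each WT leaf library, and no 2 of them were neighbours. At least 30 counts left 8. The shares are of all listed genes, and fewer members (28.0%) than genes of the whole table (49.9%) passed the filter in leaf. They therefore do not show that expressed members were less often of this kind. The E82 leaf libraries held more counts than the WT leaf libraries, as given above, and the part of this depth difference was not tested.

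Whether the effect of the line differed between the tissues was tested by the interaction of line and tissue. Of 419 tested members, 5 were called (1.19%), against 2.93% of all tested genes, and in all 5 E82 over WT was higher in leaf than in grain. All 5 had overlapping levels in the grain of both lines and were at or near 0 in WT leaf only. TraesCS3B02G595900 had 206, 202 and 201 counts in E82 leaf and 1, 1 and 2 in WT leaf, and 166, 74 and 112 counts in E82 grain and 48, 65 and 113 in WT grain. The leaf groups do not overlap and the grain groups do, with an edgeR adjusted p of 0.0210 for the interaction.

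TraesCS3B02G556500 was strongly expressed in grain, with 9530, 9916 and 8487 counts in E82 and 4537, 10653 and 7916 in WT, and had 14, 44 and 16 counts in E82 leaf and 0 in each WT leaf library (edgeR adjusted p = 0.0157). TraesCS3B02G534900 had 72, 68 and 77 counts in E82 leaf and 0 in each WT leaf library, at least 17.5-fold higher by the floor of 3 counts (adjusted p = 0.0124). TraesCS3B02G600900 had 67, 92 and 107 counts in E82 leaf and 0 in each WT leaf library, at least 21.5-fold higher (adjusted p = 0.0236). For TraesCS3B02G532600 the counts were 8, 19 and 28 in E82 leaf and 0 in each WT leaf library, at least 4.47-fold higher (adjusted p = 0.0401). The interaction calls numbered 0 without E82 grain replicate 2, against 0.792% of all genes. They numbered 24 without WT leaf replicate 1 (5.77% of members, against 9.41% of all genes). Grain and leaf were collected from 3 plants of each line, but the labels do not say whether same-numbered grain and leaf libraries share a plant. With the replicate number within a line as a block, none of the 5 was called (edgeR adjusted p = 0.280 to 0.558) and 0 of all 70086 genes were. With the block, 18 of the 419 tested members had an unadjusted edgeR p below 0.05, a share smaller than 0.05 itself. The share over all genes was not taken.

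Of the 5 most abundant members in grain by TPM, 3 overlapped between the lines, and TraesCS3B02G560100 is described above. TraesCS3B02G576000, a 300-base transcript, was at 370, 360 and 334 TPM in E82 grain and 374, 354 and 451 TPM in WT grain, with overlap (log2FC -0.40, edgeR adjusted p = 0.571). TraesCS3B02G578000 was at 357, 377 and 407 TPM in E82 grain and 281, 130 and 460 TPM in WT grain, also with overlap (log2FC 0.14, adjusted p = 0.981), and had no count in any leaf library. Its direction reversed without WT grain replicate 2. TraesCS3B02G531400 averaged 117 ± 18.9 TPM in E82 grain and 105 ± 26.9 TPM in WT grain, and 10.1 ± 1.95 TPM in E82 leaf and 18.0 ± 6.67 TPM in WT leaf (SD, n = 3 each).

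TraesCS3B02G578700, also among these 5, did not overlap between the lines. It was at 179, 181 and 168 TPM in E82 grain and 63.1, 88.8 and 129 TPM in WT grain. Its log2FC was 0.74 (SE 0.22), which did not pass the adjustment in edgeR (adjusted p = 0.208) and passed it in DESeq2 (adjusted p = 0.0287). In leaf it was at 44.8, 76.1 and 34.3 TPM in E82 and 38.3, 58.7 and 18.4 TPM in WT, with overlap.

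In leaf, the most abundant member was TraesCS3B02G608500, at 330, 317 and 243 TPM in E82 and 246, 274 and 361 TPM in WT, with overlap (log2FC 0.32, edgeR adjusted p = 0.609). TraesCS3B02G541000 was at 110, 118 and 116 TPM in E82 leaf and 160, 184 and 163 TPM in WT leaf. These groups do not overlap, and the log2FC was -0.27 (adjusted p = 0.483). TraesCS3B02G541300 was at 192, 151 and 185 TPM in E82 leaf and 94.7, 136 and 50.7 TPM in WT leaf, without overlap, and its log2FC of 1.17 did not pass (adjusted p = 0.140). TraesCS3B02G578200 varied widely, at 45.6, 118 and 38.0 TPM in E82 leaf and 299.8, 134 and 77.1 TPM in WT leaf.

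TraesCS3B02G576000 was also among the most abundant members in leaf, where it was lower in E82. It was at 110, 170 and 136 TPM in E82 leaf and 378, 217 and 528 TPM in WT leaf, without overlap. The log2FC was -1.31 (SE 0.37), with an adjusted p of 0.0920 in edgeR and 0.0191 in DESeq2.

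Among members averaging 10 CPM or more, the highest log2FC values in grain belonged to TraesCS3B02G600117, TraesCS3B02G597800 and TraesCS3B02G597900. TraesCS3B02G600117, with a transcript of 31456 bases, had 4126, 316 and 164 counts in E82 grain and 389, 389 and 310 in WT grain. Its log2FC of 2.02 rested on E82 grain replicate 1 alone and was -0.44 without it. TraesCS3B02G597800 was at 46.2, 35.5 and 31.8 TPM in E82 grain and 4.25, 15 and 32.2 TPM in WT grain (log2FC 1.02, edgeR adjusted p = 0.522), with a slight overlap. TraesCS3B02G597900, close to it in gene order, was at 35.7, 24.8 and 20.1 TPM in E82 grain and 1.40, 11.9 and 31.6 TPM in WT grain (log2FC 0.75, adjusted p = 0.852). In leaf this gene stood the other way, at 1.35, 2.47 and 1.43 TPM in E82 and 5.57, 11.6 and 4.37 TPM in WT, without overlap (log2FC -1.76, adjusted p = 0.149).

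Among members averaging 10 CPM or more in leaf, the highest log2FC values were those of TraesCS3B02G566600, TraesCS3B02G611100 and TraesCS3B02G563800. TraesCS3B02G611100 had 2459, 2280 and 2583 counts in E82 leaf and 698, 790 and 206 in WT leaf, without overlap, and no count in grain. Its log2FC was 1.75 (SE 0.40), with an adjusted p of 0.0864 in edgeR and 0.00412 in DESeq2. TraesCS3B02G566600 had 849, 929 and 883 counts in E82 leaf and 103, 378 and 94 in WT leaf, without overlap (log2FC 1.85, adjusted p = 0.122 in edgeR and 0.0419 in DESeq2). In grain it had 333, 300 and 318 counts in E82 and 199, 221 and 159 in WT, again without overlap (log2FC 0.85, edgeR adjusted p = 0.436). TraesCS3B02G563800 had 816, 879 and 1009 counts in E82 leaf and 441, 214 and 0 in WT leaf (log2FC 1.72, adjusted p = 0.717).

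The lowest log2FC values in leaf by the same limit of 10 CPM, beside TraesCS3B02G576000, were those of TraesCS3B02G549800 and TraesCS3B02G603800. TraesCS3B02G549800 was counted in some libraries only, with 315, 449 and 0 counts in E82 leaf and 0, 2105 and 0 in WT leaf, so its log2FC of -1.73 rested on WT leaf replicate 2 and was above 0 without it. TraesCS3B02G603800 had 178, 389 and 273 counts in E82 leaf and 578, 924 and 277 in WT leaf. Scaled for depth these were 3.43, 7.24 and 5.47 CPM in E82 and 14.4, 21.0 and 8.89 CPM in WT, without overlap (log2FC -1.46, edgeR adjusted p = 0.187).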

How the data were processed

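RNA was extracted from grain and flag leaf, depleted of ribosomal RNA and sequenced by the authors. Reads were trimmed with Trimmomatic 0.36 and pseudoaligned to the RefSeq v1.1 transcriptome of the IWGSC by kallisto 0.44.0. What the authors deposited were estimated counts per gene and, per transcript, estimated counts and TPM. The deposited estimated counts were rounded to whole numbers, and TPM was summed per gene. kallisto shares reads among near-identical transcripts, so the split of counts between homeologs and paralogs is an estimate.

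Genes whose CPM summed above 1 over the fitted libraries were tested with edgeR 4.0.16 (TMM, quasi-likelihood, Benjamini-Hochberg, threshold 0.05) in R 4.3.3, for E82 against WT in each tissue (6 libraries) and for the interaction (12 libraries). SE is the absolute log2FC divided by the square root of F, and 95% intervals use the degrees of freedom of the test. Alternatives were DESeq2 1.42.0, limma 3.58.1 on TPM as log2(TPM + 0.1) or log2(TPM + 1), other scalings and filters, members from ID 540000 or 480000 on, a replicate block and leaving out each library. The scripts were tested on simulated data.

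Named members were those called, the 5 highest by mean TPM in each tissue, the 3 highest and 3 lowest log2FC in each tissue among members averaging 10 CPM or more, and those in the study's tables. The members and lists were chosen with earlier results of these data known. The RefSeq gene table at hand held no TraesCS identifiers (0 rows), so gene names, homeolog pairs and sequences were not used here. p-values and 95% intervals measure the spread between the 3 plants of a line, and floors of 3 counts cover counting error only.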

Additional observations from a re-analysis of the deposited data

Results flagged for a closer look

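The effect of the line differed between the tissues in 5 distal 3B genes by the interaction of line and tissue (edgeR). The difference between the log2FC in leaf and that in grain was 6.94 for TraesCS3B02G532600, 9.01 for TraesCS3B02G534900, 7.06 for TraesCS3B02G556500, 5.86 for TraesCS3B02G595900 and 9.83 for TraesCS3B02G600900. These are fitted values, and in 4 of the genes all WT leaf libraries were at 0, so they are no bound on the size. The adjusted p was 0.0124 to 0.0401. The 5 were 1.19% of the members tested, against 2.93% of all tested genes. With the replicate number within a line as a block none was called (edgeR adjusted p = 0.280 to 0.558).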

How the results depend on the processing

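The median log2FC of well counted members minus that of all well counted genes was -0.12 to -0.02 in grain over 15 fits, below 0 in each, and -0.20 to 0.03 in leaf, above 0 with the replicate block only. Members called in grain were 5 in the fit reported and 17 with DESeq2 (4.57%, against 3.94% of all genes). They were 9 without a filter on low counts (1.94%, against 2.15%) and 9 with members from ID 480000 on. When a library was left out they were 0 to 7 (0 to 1.96%, against 0.470% to 2.63%). In leaf they were 0, but 24 with DESeq2 (8.70%, against 10.6% of all genes) and 18 with filterByExpr (7.17%, against 8.09%). With limma they were 17 on log2(TPM + 0.1) (6.16%, against 7.45%) and 3 on log2(TPM + 1) (1.09%, against 2.36%). With a library left out they were 0 to 35 (0 to 13.0%, against 0.0134% to 16.8%). For the interaction they were 5, but 21 with DESeq2 (5.01%, against 8.56% of all genes). With a library left out they were 0 to 24 (0 to 5.77%, against 0.792% to 9.41%). The median log2FC of members in grain was -0.02 in the fit reported, -0.15 without a filter, 0.14 with library totals, 0.14 on log2(TPM + 0.1), 0.0904 on log2(TPM + 1) and -0.14 to -0.0226 with a library left out. For well counted members it was 0.14 with totals, 0.18 and 0.12 on those TPM scales and -0.12 to -0.0338 with a library left out; library totals moved the median of all genes in grain to 0.19. In leaf the median was 0.75 without a filter, -0.24 with totals, 0.39 on log2(TPM + 0.1) and -0.0189 to 0.35 with a library left out, and for well counted members -0.32 with totals, 0.19 on log2(TPM + 0.1) and -0.06 to 0.19 with a library left out. The block median of TraesCS3B02G520400 to TraesCS3B02G530800 in leaf was -1.35 to -0.61, an alternative added after seeing the data.

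Replicate numbers did not pair the samples of the 2 lines. For each gene, the mean log2 CPM of a group was subtracted from that of each of its libraries. These deviations correlated at -0.05 to 0.03 between same-numbered libraries of the 2 lines. Between same-numbered grain and leaf libraries of a line, which may be from 1 plant, the deviations correlated at -0.0033 to 0.0479. With the replicate block, 5 members were called in grain (1.34%, against 1.27% of all genes) and 0 in leaf (against 0.0854%). In grain 4 were lower, without TraesCS3B02G610000 (edgeR adjusted p = 0.0854), and 1 was higher, TraesCS3B02G536200 (log2FC 1.58, edgeR adjusted p = 0.0469). The leaf medians with this block were 0.83 for all tested and 0.63 for well counted members. The interaction, blocked by replicate number within a line, had 0 calls. DESeq2 also called TraesCS3B02G536200 higher in grain, and limma called 1 member higher on each TPM scale, TraesCS3B02G601800 (adjusted p = 0.0314 and 0.0389). These 2 genes and TraesCS3B02G597300 were named after their values were seen.

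The E82/WT ratios of sums changed as follows. Distal 3B in grain was 0.870 scaled by TMM, 0.920 in TPM, 0.976 in TPM with equal totals (added after seeing the data) and 1.03 without its 10 most abundant genes, and in leaf 1.02 by TMM. Distal 3A in grain was 0.123, 0.0934 and 0.168 by TMM, in TPM and without the 10, and in leaf 0.112, 0.0741 and 0.121. Distal 3D was 1.77 by TMM and 2.19 in TPM in grain, and 2.0 and 1.44 in leaf. Stretches chosen by the running median (756 genes of 3A and 397 of 3D) gave medians of -9.99 in grain and -9.66 in leaf for 3A, and 0.96 in grain and 1.33 in leaf for 3D. With 30 counts instead of 10, 6 members were silent in E82 grain and 8 counted only in E82 leaf.

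Among named genes, TraesCS3B02G531400 in grain turned to 0.13 with totals, 0.18 on both TPM scales, 0.05 without E82 replicate 3 and 0.0594 without WT replicate 3 (-0.15 to 0.0594 over the libraries left out). TraesCS3B02G578000 turned to -0.25 without WT grain replicate 2 (-0.25 to 0.47), TraesCS3B02G600117 to -0.44 without E82 grain replicate 1 (-0.44 to 2.53), and TraesCS3B02G549800 in leaf to 1.98 with the replicate block, 0.95 on log2(TPM + 0.1) and 10.77 without WT leaf replicate 2 (-2.36 to 10.77). The causes of these changes were not tested.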
